A study of Homo sapiens with 9 samples.

Results

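The genes described here are 10 readouts of FGF/ERK signalling: SPRY1, SPRY2, SPRY4, SPRED1, SPRED2, DUSP4, DUSP5, DUSP6, ETV4 and ETV5. They were taken as the probe sets whose single gene symbol was one of these names. Each gene had 1 probe set, so they made up 10 of the 19460 probe sets with 1 symbol and 10 of the 18417 genes measured. RNA came from H9-TCF7L1, a derivative of the established human embryonic stem cell line H9 with a TCF7L1 transgene, which all 3 groups carried. Untreated cells were kept in mTeSR1, a medium that maintains pluripotency. A second group spent 48 h in PS medium, a primitive streak differentiation medium, without doxycycline. The third spent 48 h in PS medium with 1 ug/ml doxycycline (Dox) for 48 h, which switches the transgene on. Each group had 3 arrays. The sources used here give neither the promoter that drives the transgene nor the make-up of PS medium. No group received Dox without the transgene.

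When a fibroblast growth factor binds its receptor, RAS, RAF and MEK kinases pass the signal on to ERK, which enters the nucleus and raises a fast set of target genes. Several of those targets act back on the pathway. Sprouty and SPRED proteins restrain RAS and RAF activation, and dual-specificity phosphatases (DUSPs) remove the activating phosphates from ERK. ETV4 and ETV5 are ETS transcription factors of the PEA3 group that carry the FGF signal to further genes. Human embryonic stem cells depend on FGF signalling to stay pluripotent, and cells of the forming primitive streak depend on it to migrate and to form mesoderm. The comparisons ask how these readouts differed after the change of medium and after TCF7L1 induction, in a study set up to find putative TCF7L1 targets.

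Values below are deposited array intensities on a linear scale. Differences between groups are on the log2(value + 16) scale after quantile normalization, with limma SEs and Benjamini-Hochberg adjusted p-values over 18417 genes, and n = 3 arrays per group throughout. "Passed" means an adjusted p under 0.05. TCF7L1 itself read 3718, 3878 and 3572 on the untreated arrays. In PS medium it read 1275, 1542 and 1611, and with Dox 13100, 12433 and 2699. It was 5.24-fold higher with Dox than in PS medium (2.39 ± 0.47, limma adjusted p = 0.00464), or 3.14 on the log2 scale without Dox replicate 3. Against untreated cells the Dox group did not pass (1.04 ± 0.47, adjusted p = 0.124) and its arrays overlapped, replicate 3 being below every untreated array; without replicate 3 it passed at 1.78 (adjusted p = 4.62e-07, range over alternatives 4.62e-07 to 0.374). PS medium was 1.35 below untreated cells on the log2 scale with no overlap of arrays, which missed the threshold in the main fit (adjusted p = 0.0502). This fall passed in 7 of 18 alternatives (adjusted p from 1e-06 to 0.128). Among these were the 2 groups fitted alone (6.39e-06) and leaving out Dox replicate 3 (1e-06). Replicate 3 of the Dox group was thus far below the other Dox arrays in the induced gene, and member values are given for that array throughout. Pluripotency markers (6 of 9 listed were measured, without POU5F1, NANOG and TDGF1) summed to 23792 to 25273 in untreated cells, 14220 to 16512 in PS medium and 19982 to 20541 with Dox. With Dox against PS medium SOX2 rose most of them (4.53-fold), while LIN28A, DNMT3B and ZFP42 did not pass. Primitive streak markers (7 of 7) summed to 1597 to 1725, 72437 to 83916 and 14161 to 21072 in the order untreated, PS medium and Dox. Most of that sum in PS medium was EOMES (50981, 55273 and 57102). Amnion and trophectoderm markers (6 of 7) summed to 1117 to 1170, 14603 to 15602 and 25835 to 29445. Neuroectoderm markers (6 of 6) summed to 3786 to 4444, 6674 to 8170 and 3551 to 4179, and fibroblast markers (6 of 6) to 6998 to 7273, 4825 to 5135 and 3915 to 4120. Between untreated cells and PS medium all 6 pluripotency markers fell and all 7 streak markers rose, and with Dox against PS medium 3 of the 6 rose and 6 of the 7 fell. Of the amnion and trophectoderm markers, 4 rose and 1 fell with the medium and 5 rose with Dox. The neuroectoderm sum followed OTX2, also a gene of the early streak, which rose 2.12-fold in PS medium and was 2.92-fold lower with Dox. The other 5 markers did not pass in PS medium. With Dox against PS medium, 0 of the 6 markers passed higher and 2 passed lower. These were OTX2 and LHX2 (-0.38 on the log2 scale, limma adjusted p = 0.0168). PAX6 read 18, 40 and 129 in PS medium and 269, 228 and 69 with Dox, higher without passing (limma adjusted p = 0.0858) and with overlap of arrays. Against untreated cells, 2 of the 6 neuroectoderm markers were higher with Dox and 1 was lower. The fibroblast sum followed THY1, which human embryonic stem cells also express and which was 3.26-fold lower in PS medium. COL1A1 was 1.60-fold lower there, whereas FBLN1 was 1.64-fold higher and DCN, LUM and PDGFRB did not pass. The part of these marker shifts in the results below was not tested. In bulk RNA, fewer cells of a type and less RNA per cell cannot be told apart.

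With Dox, 7 of the 10 genes fell against PS medium alone and 0 rose by limma, with 0 rises also at an unadjusted p under 0.05. Over all genes 17.4% passed in that comparison, 8.44% lower and 8.91% higher. The median log2 difference of the 10 genes was -1.01, beside 0.00 over all genes. All 3 DUSPs and both ETV factors were among the falls, with SPRY4 and SPRED1. The change of medium alone split the genes: 4 fell and 2 rose between untreated cells and PS medium, where 29.8% of all genes passed (15.7% lower and 14.2% higher). Their median there was -0.10, beside -0.01 over all genes. Against untreated cells, the Dox group was lower in 7 genes and higher in 1, where 30.3% of all genes passed (14.9% lower and 15.3% higher), and the median was -0.82. These comparisons share arrays, so their counts are not separate evidence. The 10 genes were also chosen with earlier results of these data known. Their contrast with all genes, or with the other lists below, is therefore a description and not a test.

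**Figure D1:**
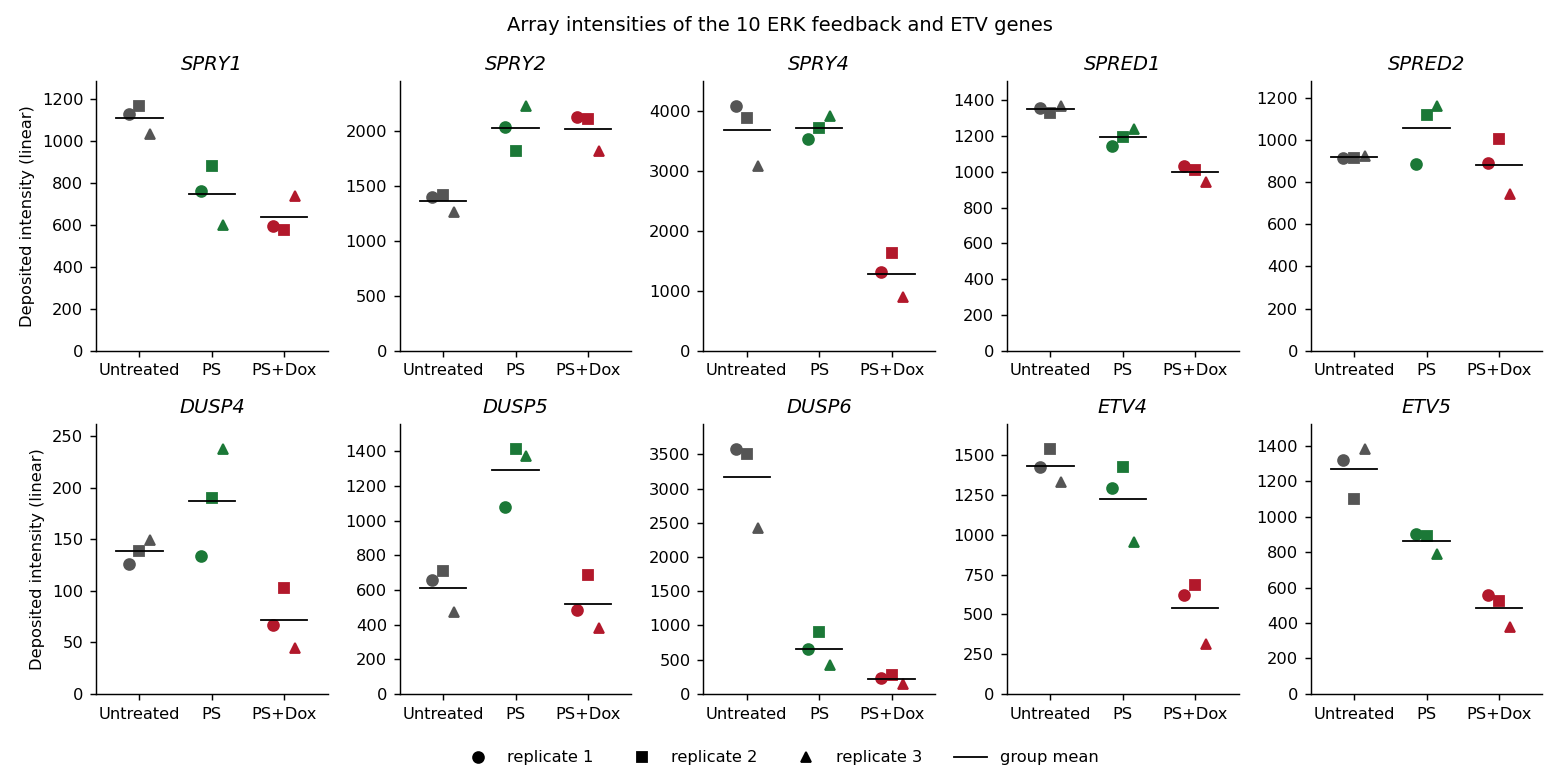
Deposited intensity (linear, from 0) of each gene on each of the 9 arrays, by group; circles, squares and triangles are replicates 1, 2 and 3, and the bar is the group mean. SPRY4 lies at 3084 to 4098 on all 6 arrays without Dox and at 892 to 1627 with it, while SPRY2 with Dox (1820 to 2132) overlaps PS medium (1819 to 2236).

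The 3 Sprouty genes, whose proteins block growth factor signals upstream of ERK, took 3 different courses. SPRY4 read 4098, 3896 and 3084 untreated, then 3545, 3726 and 3920 in PS medium and 1308, 1627 and 892 with Dox. The first 2 groups overlapped, and every Dox array lay below both. Between PS medium and untreated cells SPRY4 differed by 0.01 ± 0.18 (SE) on the log2 scale (limma adjusted p = 0.978, 95% interval -0.38 to 0.40), a sign that turned without untreated replicate 3 (-0.11) or PS replicate 3 (-0.03). With Dox it was 2.96-fold lower than in PS medium (-1.57 ± 0.18, adjusted p = 0.000141), the largest of the members' falls there and the 100th largest fall among all genes. It was 2.94-fold lower than in untreated cells (adjusted p = 7.54e-05).

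SPRY2 read 1406, 1423 and 1267 untreated, then 2043, 1819 and 2236 in PS medium and 2132, 2113 and 1820 with Dox. Both PS groups lay above untreated cells and overlapped each other. SPRY2 rose by 0.53 ± 0.09 in PS medium (1.45-fold, adjusted p = 0.00113). It did not pass with Dox against PS medium: the difference was 0.01 ± 0.09 (adjusted p = 0.946, 95% interval -0.19 to 0.21), and -0.01 on values as deposited or median-centred. SPRY2 was the only member that was higher with Dox than in untreated cells past the threshold (1.46-fold, adjusted p = 0.000987).

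SPRY1 read 1127, 1168 and 1034 untreated, then 760, 882 and 600 in PS medium and 596, 577 and 737 with Dox. It fell by 0.60 on the log2 scale in PS medium (SE 0.14, adjusted p = 0.00722), and the groups with and without Dox overlapped (-0.22 ± 0.14, adjusted p = 0.356). It was the one member in which Dox replicate 3 was the highest Dox array.

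The unequal course of the Sprouty genes was also set out array by array, as the log2 difference between paralogs on the same array. The SPRY4 minus SPRY2 difference averaged 1.40 ± 0.13 (SD) in untreated cells, 0.88 ± 0.14 in PS medium and -0.70 ± 0.32 with Dox, with no overlap between any pair of groups. The change with Dox was thus 1.58 log2 units lower in SPRY4 than in SPRY2, and 1.35 lower in SPRY4 than in SPRY1. For each the two-sided exact permutation test gave p = 0.1, the smallest that 3 against 3 arrays allow, or 0.15 adjusted over the 24 paralog tests made.

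Promoter sequence from RefSeq (GRCh38.p14) was given for 6 of the 10 genes in 10 windows of 300 bases, 250 before and 50 after a start site. The windows were searched on both strands for TCF/LEF-type words (the words CTTTGAT or CTTTGAA or CTTTGTT), because TCF7L1 is a TCF/LEF factor, and for ETS-type words (the words CCGGAAG or CAGGAAG), because ETV4 and ETV5 are ETS factors. A TCF/LEF-type word lay in 1 of the 10 windows, beside 11.5% of all 35116 windows, and an ETS-type word in 4, beside 21.8%. The window with TCF/LEF-type words belonged to one of 3 start sites of SPRY2 and held CTTTGAA at 2 places on the other strand, where it reads TTCAAAG in the printed line. That word alone was in 4.43% of all windows, and CAGGAAG alone in 12.7%. No matches overlapped each other. The windows of DUSP6 and SPRY4, the members with the largest falls under Dox, held none of the words. A match is a description of letters and not a site of binding, and its absence says only that those letters are not in that window. The 250 bases before 1 start of each gene are printed to set these 3 genes beside a SPRY1 window that held both ETS-type words. Another SPRY1 window held none of the words. The printed bases run 5′ to 3′ on the gene's strand, with matched words in capitals.
SPRY2, chr13:80339660-80339909, minus strand: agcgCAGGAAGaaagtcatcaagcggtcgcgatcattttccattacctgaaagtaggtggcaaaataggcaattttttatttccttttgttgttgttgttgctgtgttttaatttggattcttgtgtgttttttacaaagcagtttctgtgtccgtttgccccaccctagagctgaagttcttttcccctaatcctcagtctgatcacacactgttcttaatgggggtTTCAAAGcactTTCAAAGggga
SPRY4, chr5:142324248-142324497, minus strand: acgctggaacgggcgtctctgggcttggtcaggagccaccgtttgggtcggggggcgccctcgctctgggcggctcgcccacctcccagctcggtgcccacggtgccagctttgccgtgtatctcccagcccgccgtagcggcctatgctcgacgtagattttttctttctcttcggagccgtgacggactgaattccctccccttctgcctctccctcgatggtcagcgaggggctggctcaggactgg
DUSP6, chr12:89352502-89352751, minus strand: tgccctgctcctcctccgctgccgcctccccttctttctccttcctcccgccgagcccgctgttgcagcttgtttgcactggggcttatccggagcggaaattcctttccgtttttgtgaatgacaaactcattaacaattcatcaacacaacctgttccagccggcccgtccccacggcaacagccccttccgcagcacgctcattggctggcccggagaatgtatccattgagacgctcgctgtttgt
SPRY1, chr4:123398136-123398385, plus strand: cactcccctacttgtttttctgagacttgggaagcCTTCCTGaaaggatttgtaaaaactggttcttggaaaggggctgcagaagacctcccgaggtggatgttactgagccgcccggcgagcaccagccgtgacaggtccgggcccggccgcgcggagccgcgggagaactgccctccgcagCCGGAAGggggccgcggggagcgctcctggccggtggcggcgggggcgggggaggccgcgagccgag
In SPRY1 the capitals are CAGGAAG on the other strand and CCGGAAG as printed, and in SPRY2 the first run of capitals is CAGGAAG.

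The 2 SPRED genes are relatives of Sprouty that recruit neurofibromin to switch off RAS, and neither differed by more than 0.46 log2 units in any comparison. SPRED1 read 1357, 1331 and 1371 untreated, then 1147, 1196 and 1242 in PS medium and 1033, 1013 and 946 with Dox. The 3 groups did not overlap and stepped down in that order. With Dox it was 1.19-fold lower than in PS medium (-0.26 ± 0.06, adjusted p = 0.0144) and 1.38-fold lower than in untreated cells (adjusted p = 0.000234). The first of these calls was lost when the 2 groups were fitted alone (adjusted p = 0.0532, range over alternatives 0.00861 to 0.0532). The step from untreated cells to PS medium (-0.21 ± 0.06, adjusted p = 0.0274) was lost in 7 of 18 alternatives. These were values as deposited (0.0604), median centring (0.206), leaving out untreated replicate 1 (0.0863), 2 (0.0512) or 3 (0.0855), and leaving out PS replicate 1 (0.0917) or 2 (0.0667).

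SPRED2 read 912, 911 and 925 untreated, then 884, 1119 and 1162 in PS medium and 887, 1005 and 743 with Dox. Its groups overlapped in every comparison. It passed in none of them, with -0.27 ± 0.11 with Dox against PS medium (adjusted p = 0.155), a difference that passed without PS replicate 1 (-0.38, adjusted p = 0.0439, range over alternatives 0.0439 to 0.398).

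The 3 DUSP genes differed most in how the medium alone affected them. DUSP6, a cytoplasmic phosphatase that acts on ERK, read 3582, 3505 and 2427 untreated, then 656, 904 and 421 in PS medium and 238, 281 and 145 with Dox. The 3 groups were fully separate, with untreated cells high and Dox arrays low. DUSP6 dropped 4.90-fold on the change to PS medium (-2.29 ± 0.28, adjusted p = 0.000134), the 40th largest fall among all genes. With Dox it was a further 2.80-fold lower (-1.49 ± 0.28, adjusted p = 0.00419). The Dox group was 13.7-fold below untreated cells (-3.78 ± 0.28, adjusted p = 3.87e-06), the 5th largest fall of 18417 genes in that comparison.

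DUSP5, a nuclear phosphatase that acts on ERK, rose where DUSP6 fell. It read 656, 710 and 475 untreated, then 1078, 1414 and 1375 in PS medium and 483, 683 and 382 with Dox. PS arrays were above all others, while untreated and Dox arrays overlapped. It rose 2.05-fold in PS medium (1.04 ± 0.20, adjusted p = 0.00239) and was 2.51-fold lower with Dox than in PS medium (-1.32 ± 0.20, adjusted p = 0.000899). Against untreated cells the Dox group differed by -0.29 ± 0.20 (adjusted p = 0.316, 95% interval -0.73 to 0.15).

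DUSP4, a nuclear phosphatase that acts on ERK and other MAP kinases, was the dimmest member. It read 126, 139 and 149 untreated, then 134, 190 and 238 in PS medium and 67, 103 and 45 with Dox. Untreated and PS arrays overlapped (0.40 ± 0.25, adjusted p = 0.292), and every Dox array was below both groups. It was 2.32-fold lower with Dox than in PS medium (-1.22 ± 0.25, adjusted p = 0.00682), or -1.40 if 1 was added before the log and -0.88 if 64 was added. Against untreated cells it fell by 0.82 on the log2 scale (adjusted p = 0.0315). That call was lost without untreated replicate 1 (0.0607), 2 (0.0849) or 3 (0.0894), or Dox replicate 1 (0.0850) or 3 (0.101).

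The DUSP6 minus DUSP5 difference was 2.33 ± 0.06 (SD) in untreated cells and changed by -3.33 in PS medium, with no overlap (two-sided exact permutation p = 0.1, the smallest possible, adjusted p = 0.15). With Dox it was -1.16 ± 0.17, which overlapped PS medium (change -0.16, exact permutation p = 0.7, adjusted p = 0.764). All 3 DUSP genes fell with Dox, and none of the 3 paralog differences among them separated the groups with and without Dox.

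Both ETV genes were lowest with Dox. ETV4 read 1428, 1540 and 1329 untreated, then 1296, 1425 and 955 in PS medium and 618, 684 and 316 with Dox. The first 2 groups overlapped and the Dox arrays were all lower. ETV4 differed by -0.27 ± 0.24 between PS medium and untreated cells (adjusted p = 0.451) and was 2.31-fold lower with Dox than in PS medium (-1.21 ± 0.24, adjusted p = 0.00509). It was 2.80-fold lower than in untreated cells (-1.49 ± 0.24, adjusted p = 0.000855). ETV5 read 1318, 1097 and 1383 untreated, then 900, 891 and 789 in PS medium and 555, 522 and 376 with Dox, stepping down without overlap. It fell by 0.58 in PS medium (SE 0.14, adjusted p = 0.0101) and by 0.82 more with Dox (1.76-fold, adjusted p = 0.00222), and the Dox group was 2.63-fold below untreated cells (adjusted p = 3.40e-05).

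**Figure D2:**
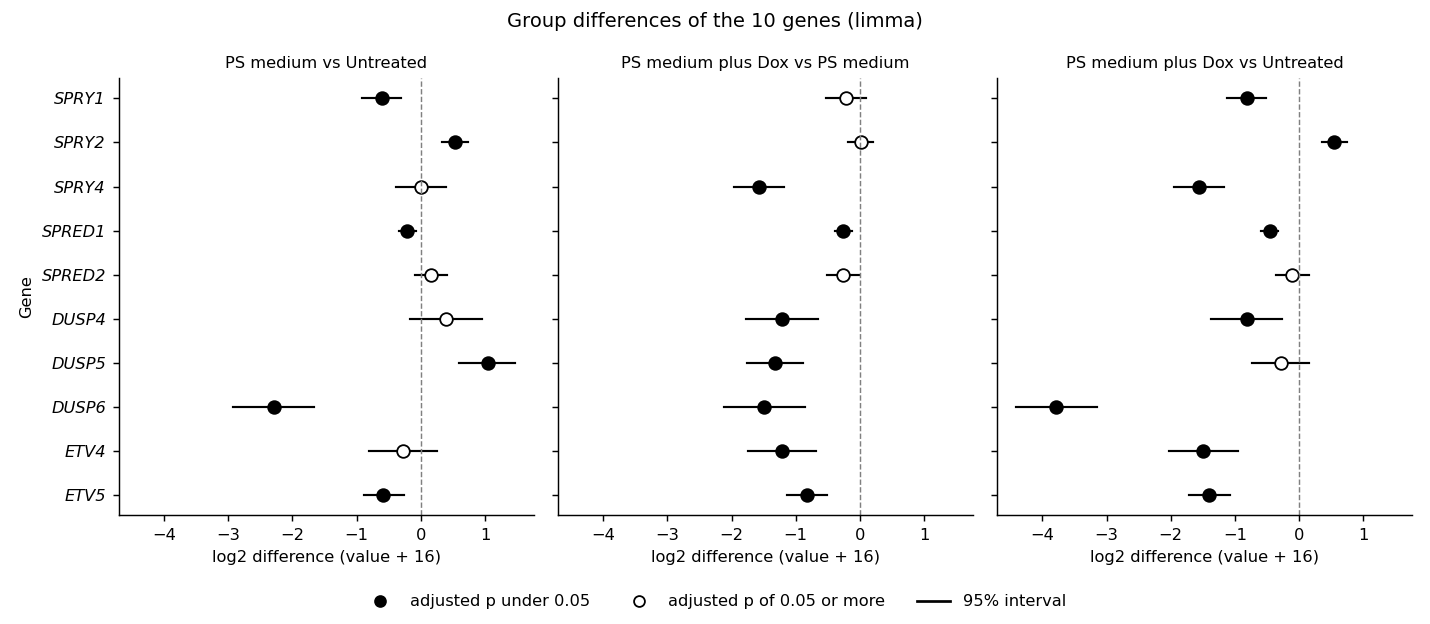
Log2 difference of each gene in the 3 comparisons, with 95% intervals from limma; filled points have an adjusted p under 0.05. With Dox against PS medium every point except SPRY2 (0.01) lies below 0, from -0.22 for SPRY1 to -1.57 for SPRY4, and SPRY1, SPRY2 and SPRED2 did not pass.

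By group means, 5 members stepped down from untreated cells to PS medium to Dox: SPRY1, SPRED1, DUSP6, ETV4 and ETV5. Another 4 were highest in PS medium and lowest with Dox: SPRY4, SPRED2, DUSP4 and DUSP5. SPRY2 alone was lowest in untreated cells, and its 2 PS group means differed by 0.01. Neighbours in these orders did not pass between untreated cells and PS medium for SPRY4, SPRED2, DUSP4 and ETV4, between PS medium and Dox for SPRY1 and SPRY2, and between untreated cells and Dox for SPRED2 and DUSP5. By deposited values, the Dox arrays lay wholly below those in PS medium in 7 of 10 members and above in 0, beside 15.1% and 14.9% of all genes (29.9% in either direction). Untreated and PS arrays did not overlap in 6 members, 4 lower and 2 higher in PS medium, beside 42.5% of all genes (21.8% lower and 20.7% higher). Untreated and Dox arrays did not overlap in 8 members, 7 lower and 1 higher with Dox, beside 44.6% of all genes (22.3% each way).

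The arrays of replicate 3 stood apart in several members. On the Dox array with the lowest TCF7L1 value, 9 of the 10 genes had their lowest Dox value, where 32.5% of all genes did. Their median size of deviation from the mean of the other Dox arrays was 0.51 log2 units, beside 0.11 over all genes. ETV4 was 0.98 lower on that array, DUSP6 0.79, DUSP4 0.77 and SPRY4 0.69, each further from the PS mean than the Dox arrays with more TCF7L1. Replicate 3 was also the lowest of its group in 6 members in untreated cells and in 4 in PS medium, beside 30% and 37.2% of all genes. DUSP6 and ETV4 were lowest on replicate 3 in all 3 groups, as were 8.6% of all genes. Same-numbered arrays deviated together across genes in the comparison of Dox with PS medium, so differences were also taken within a number. For DUSP6 the ratio of Dox to PS intensity was 0.363, 0.310 and 0.345 in numbers 1, 2 and 3, a narrow range despite its spread within groups. ETV4 gave 0.477, 0.480 and 0.331, ETV5 gave 0.617, 0.586 and 0.476, and SPRY4 gave 0.369, 0.437 and 0.228. DUSP4 spread most of the genes given so far, with 0.502, 0.542 and 0.187. SPRY1 gave 0.785, 0.654 and 1.23, and SPRY2 gave 1.04, 1.16 and 0.814, so their direction differed between numbers. SPRED2 gave 1, 0.898 and 0.639. Without Dox replicate 3, the same number of members (7) passed against PS medium, and the DUSP4 difference was -0.96.

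**Figure D3:**
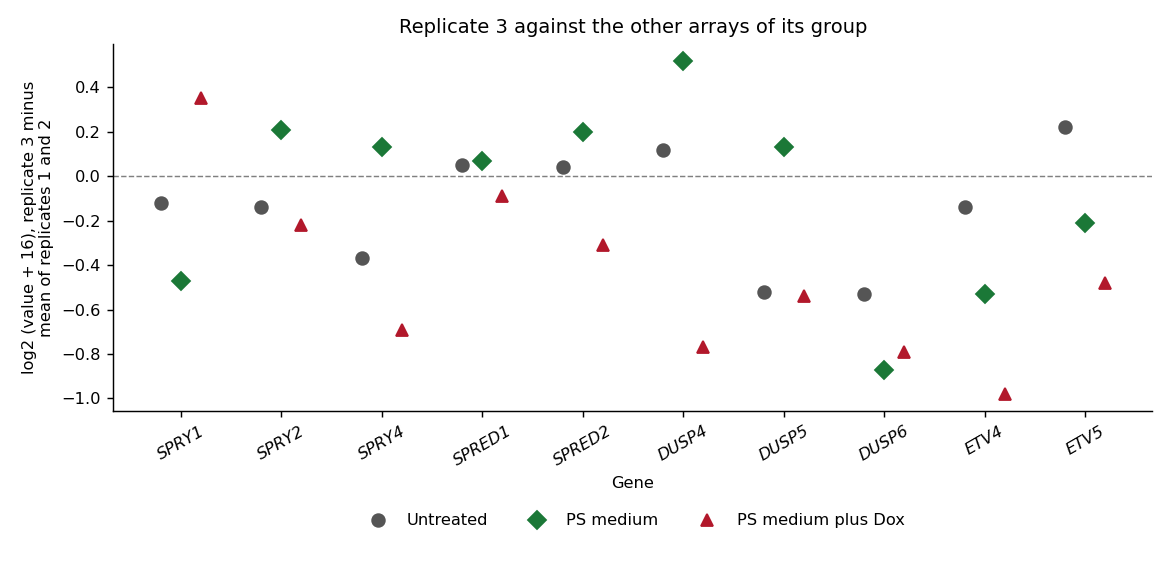
Log2(value + 16) of replicate 3 minus the mean of replicates 1 and 2 in its own group, for each gene; circles are untreated cells, diamonds PS medium and triangles PS medium with Dox. DUSP6 and ETV4 lie below 0 in all 3 groups, and with Dox SPRY1 (0.35) is the one gene above 0.

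The rest of the pathway, taken from lists of other genes, did not share 1 direction with Dox. Over all genes 8.44% passed lower and 8.91% higher against PS medium, and no list was tested against these shares. Of 17 other feedback inhibitors measured, 3 fell and 2 rose against PS medium (5 and 3 with the replicate number as a block), with a median of -0.02. IL17RD, a membrane inhibitor of FGF receptors also called SEF, was 2.37-fold lower (-1.24 ± 0.18, adjusted p = 0.000833). Its arrays read 2219, 2061 and 1829 in PS medium and 991, 1030 and 594 with Dox. DUSP10, a phosphatase that prefers the stress kinases p38 and JNK, was 2.39-fold lower, and ERRFI1, an inhibitor of EGF receptors, was 1.81-fold higher. Among 15 other ERK-responsive genes, 4 fell and 2 rose, with a median of 0.06. IER3, an early response gene, was 2.97-fold lower, and the ephrin receptors EPHA4 and EPHA2 were 2.52-fold and 2.02-fold lower. MYC was 1.72-fold lower (adjusted p = 0.00249). The 2 rises were EGR1 (1.72-fold, adjusted p = 0.00335) and JUNB (1.41-fold, adjusted p = 0.00608). PHLDA1, another readout of ERK activity, differed by 0.30 (adjusted p = 0.393), and CCND1, cyclin D1, by 0.28 (adjusted p = 0.253), which passed at 0.45 without Dox replicate 3 (adjusted p = 0.0200, range over alternatives 0.0200 to 0.640). Of 10 other ETS factors and regulators, 5 fell and 1 rose, with a median of -0.21. ELK3 was 1.97-fold and ETS2 1.86-fold lower, and ETV3, a repressor, was 1.94-fold higher. ETV1, the third PEA3 factor, was 0.50 lower on the log2 scale (adjusted p = 0.00783), after a fall of 1.71-fold in PS medium.

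Among 22 FGF family genes, 6 fell and 3 rose with Dox (median -0.10). The list holds FGF11, FGF12, FGF13 and FGF14, which stay inside the cell and are not receptor ligands, and 1 of the 6 falls was FGF12 (-0.92, adjusted p = 0.000155). FGF17, expressed in the streak, read 6827, 10117 and 17533 in PS medium and 1251, 3320 and 1726 with Dox, 5.35-fold lower (adjusted p = 0.000718). FGF18 read 423, 392 and 397 in PS medium and 2933, 4096 and 774 with Dox, 5.09-fold higher (adjusted p = 0.00447), and its lowest Dox array was the one with the lowest TCF7L1 (log2 difference 2.35, and 3.06 without that array). FGF7 was 5.57-fold higher (adjusted p = 0.00426), and its Dox arrays read 162, 181 and 891 (log2 difference 2.48, and 1.72 without Dox replicate 3 or 1.84 with an offset of 64). The family's count of 9 became 4 without PS replicate 2 and 5 without Dox replicate 3. Among 16 receptor tyrosine kinases, 6 rose and 4 fell (median 0.14). PDGFRA was 4.02-fold lower, KDR, a VEGF receptor, 2.55-fold lower, and ERBB4 2.13-fold higher. ERBB4 was dim (60, 52 and 53 in PS medium), and its log2 difference ran from 0.75 to 1.28 over the alternatives. The FGF receptors differed: FGFR2 rose by 0.67, FGFR1 rose by 0.29 and FGFR4 fell by 0.34 (adjusted p = 0.0313), whereas FGFR3 did not pass (0.17, adjusted p = 0.321). The FGFR4 call was lost in 8 of 18 alternatives (adjusted p from 0.00683 to 0.105), 6 of which left out 1 array: untreated replicate 1 (0.0550) or 2 (0.0519), PS replicate 1 (0.0776) or 2 (0.105), or Dox replicate 1 (0.0764) or 3 (0.0954). Of 17 measured RAS to ERK cascade genes, 2 rose and 2 fell (median 0.08). MAP2K1, which encodes the kinase MEK1, was 1.54-fold lower (-0.62 ± 0.08, adjusted p = 0.000431), GAB1, an adaptor, 1.35-fold higher (another of its probe sets did not pass, 0.19, adjusted p = 0.153) and SHC1, also an adaptor, 1.22-fold lower.

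**Figure D4:**
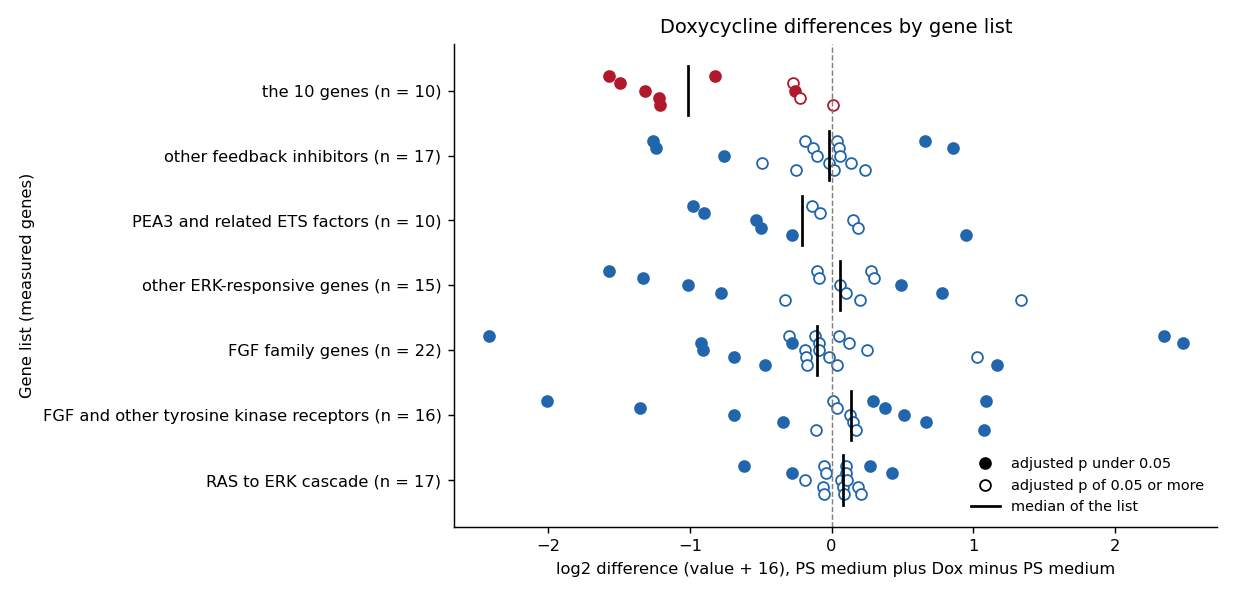
Log2 difference between PS medium with Dox and PS medium for each measured gene of the lists; each point is a gene, filled where the adjusted p is under 0.05, and the bar is the list's median. The 10 genes have a median of -1.01, and the medians of the 6 other lists run from -0.21 to 0.14. The 10 genes and the lists were chosen with earlier results of these data known.

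Between untreated cells and PS medium the other lists were also mixed. Over all genes 15.7% passed lower and 14.2% higher in that comparison, and no list was tested against these shares. Other feedback inhibitors rose in 5 and fell in 3 of 17 cases, with DUSP10 10.3-fold higher (arrays at 59, 74 and 68 untreated against 739, 775 and 984 in PS medium) and LRIG1, an inhibitor of EGF receptors, 2.62-fold lower. DUSP16, which prefers JNK, was 2.37-fold lower. Other ERK-responsive genes rose in 6 and fell in 3 of 15 cases, with EPHA4 3.85-fold and IER3 3.48-fold higher and PHLDA1 1.87-fold lower. Other ETS factors and regulators rose in 4 and fell in 1 of 10 cases, the fall being ETV1, with ELK3 1.86-fold and ETS1 1.53-fold higher. FGF family genes rose in 7 and fell in 1 of 22 cases, with FGF17 31.9-fold, FGF10 6.19-fold and FGF14, an intracellular member, 4.07-fold higher. FGF10 and FGF14 were near the floor untreated (16, 34 and 25, and 24, 11 and 17), so their folds depend on the log offset: the log2 differences ran from 1.75 to 3.24 and from 1.17 to 2.75 over the alternatives. With an offset of 64, DUSP10 was 2.77 higher in place of 3.36, and PDGFRA 2.88 in place of 3.52. Receptors rose in 4 and fell in 7 of 16 cases, with PDGFRA 11.5-fold and FGFR3 2.70-fold higher and ERBB2 2.06-fold lower. Cascade genes rose in 5 and fell in 2 of 17 cases, with SOS2, a RAS activator, 1.86-fold higher, and the ERK-activated kinases RPS6KA2 and RPS6KA1 1.69-fold and 1.23-fold lower (RPS6KA1 did not pass with median centring, adjusted p = 0.0885). The cascade count of 7 became 3 without untreated replicate 1 or PS replicate 2, and 4 without PS replicate 3.

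Between untreated cells and the Dox group, 15.3% of all genes passed higher and 14.9% lower, and no list was tested against these shares. Other feedback inhibitors were higher in 7 and lower in 3 of 17 cases, with DUSP10 4.31-fold higher, LRIG1 4.45-fold lower and DUSP16 2.70-fold lower. Other ERK-responsive genes were higher in 3 and lower in 3 of 15 cases, with JUNB, an AP-1 subunit, 2.05-fold and CCND1 1.92-fold higher and MYC 1.96-fold lower. Among other ETS factors and regulators 2 were higher and 3 lower of 10, with ETV3 2.42-fold higher, ETV1 2.42-fold lower and ETS2 1.66-fold lower. For FGF family genes the counts were 6 higher and 4 lower of 22, with FGF10 12.6-fold, FGF17 5.97-fold and FGF7 5.43-fold higher (log2 difference 2.44, and 1.69 without Dox replicate 3 or 1.82 with an offset of 64). The FGF10 difference was 3.66 on the log2 scale and ran from 2.66 to 4.31 over the alternatives. Receptors were higher in 6 and lower in 6 of 16 cases, with FGFR3 3.04-fold, PDGFRA 2.86-fold and ERBB4 2.06-fold higher. The log2 difference of ERBB4, a dim gene, ran from 0.72 to 1.23 over the alternatives. Cascade genes were higher in 6 and lower in 3 of 17 cases, with SOS2 2.13-fold higher, RPS6KA2 1.57-fold lower and MAP2K1 1.39-fold lower.

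Across the 9 arrays the members formed no single pattern. These correlations are across arrays that share the group differences, and are descriptions only. SPRED1 and ETV5 followed each other most closely (Pearson r = 0.97), then SPRY4 and ETV4 (0.94) and DUSP6 and ETV5 (0.94), and SPRY1 and SPRY2 ran opposite (-0.94). After the group means were removed, DUSP6 and ETV4 still correlated at 0.89, SPRY4 and DUSP5 at 0.91 and SPRED2 and DUSP4 at 0.95, whereas SPRED1 and DUSP6 did not (-0.09). For each member, the 2 other genes most like it over the 9 arrays were taken among genes brighter than the median gene. DUSP5 was most like EPHA2 (r = 0.994), which read 670, 739 and 553 untreated, then 1120, 1304 and 1233 in PS medium and 574, 744 and 499 with Dox. DUSP6 was most like FGFR4 (0.993) and KLHL7 (0.988). ETV4 was most like PGM2L1 (0.995) and SFRP2 (0.988), and ETV5 like KCTD17 (0.987) and MAPRE2 (0.985). SPRY4 was most like RBPMS2 (0.982) and HDGFL3 (0.973), SPRY2 like KCTD15 and MXRA5 (both 0.978), and SPRY1 like SIAH3 and CDK14 (both 0.970). SPRED1 was most like MTHFD2 (0.988) and SHFL (0.984), DUSP4 like ZCCHC24 and LONRF1 (both 0.970), and SPRED2 like GRB10 (0.936) and USP2 (0.925). TUBB6 (0.967) came second for DUSP5.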

How the data were processed

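The authors deposited probe set intensity values on a linear scale, 1 column per array. The submitters' processing notes name Affymetrix Expression Console 1.1.1 and PLIER 2.0. The sources used here give no background correction, between-array normalization or genome build. Array medians ran from 200.4 to 216.5, and the number of arrays, 3 per group, limits the precision.

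Of 33297 probe sets, 19460 had 1 gene symbol, 1754 several and 12083 none listed, and 19429 took a current symbol by gene number from a GRCh38.p14 gene table. The probe set with the highest mean stood for each of 18417 genes. Values were taken as log2(value + 16), which understates changes of dim genes, and quantile-normalized. The model held a mean for each group over all 9 arrays (limma 3.58.1, lmFit and eBayes with a trend, R 4.3.3, 6 residual degrees of freedom). Tested on simulated data for Dox against PS medium over 18417 genes, this recovered 98% of 100 genes changed 2-fold and 100% of 100 changed 4-fold, with 6 false calls. The changed genes were drawn from those brighter than the median gene, and the simulated noise was independent between genes and arrays. The rates therefore do not cover dimmer genes such as DUSP4, or deviations that arrays share. The labels do not say that replicates are separate cultures, so p-values measure only how these samples differ, which may be technical spread.

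Deviations from group means of same-numbered arrays correlated across genes at 0.245, 0.428 and 0.246 between Dox and PS medium, at 0.246, 0.309 and 0.297 between Dox and untreated cells, and at 0.086, 0.397 and 0.271 between PS medium and untreated cells. The numbers were therefore taken as pairs for the first 2 comparisons, from the data and not the labels. The fit kept no block, and the block was an alternative.

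The 10 genes and the lists were chosen with earlier results of these data known. Named genes were all 10 members, TCF7L1 and the 2 genes most like each member. From each pathway list, the 3 (or fewer) called genes that changed most in each comparison were also named. FGF receptors, ETV1, PHLDA1, CCND1, JUNB and MYC were also named in other comparisons, and EGR1 was named too. These choices were made after their values were seen. Some listed genes are not analysed here, and counts are over the listed genes that were measured. The protein comparison that had been planned was not made. Plots used matplotlib 3.10.9 under Python 3.11.15.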

Additional observations from a re-analysis of the deposited data

How the results depend on the processing

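The limma differences of the members, TCF7L1 and most named pathway genes, and the counts of called genes, were recomputed under 18 alternatives. These were values as deposited, median centring, log offsets of 1 and 64, a filter on the dimmest genes and all probe sets. The rest were the 2 groups alone, no trend, the replicate block, and leaving out each array. The paralog tests, marker sums, replicate 3 values, within-number ratios and correlations were not recomputed. Of 180 recomputed member differences per comparison, 171 kept their direction and side of the threshold for PS medium against untreated cells, 173 for Dox against PS medium and 175 for Dox against untreated cells. The changes were those of SPRED1, SPRED2 and DUSP4 given above and sign changes of SPRY2 and SPRY4 differences near 0. SPRY2 with Dox against PS medium was -0.01 on values as deposited and with median centring, and -0.07 to 0.09 when 1 array was left out. SPRY4 between PS medium and untreated cells ran from -0.11 to 0.08 when 1 array was left out. The cause was not tested. With the replicate number as a block, 6, 7 and 8 members passed in the 3 comparisons, as without it, and 6936, 4482 and 7056 genes in place of 5496, 3196 and 5574. The block changed no member's call. It raised the count of other ETS factors and regulators called between PS medium and untreated cells from 5 (4 higher, 1 lower) to 8 (5 higher, 3 lower). FGF family genes called with Dox went from 9 to 4 when the 2 groups were fitted alone. Signal limits DUSP4 most, whose Dox level lay at the 15.8th percentile of all genes.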
